A study of Homo sapiens with 25 samples.

Results

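SPIDR, AGAP1, COBL, TRAK1 and UBASH3B are 5 of 19974 protein-coding genes, described here for their histone marks in colon cancer cells with added FOXD2. They were chosen by the deposited H3K27ac peaks: they held the most regions found in both FOXD2 lists and in neither control list, with each region assigned to the nearest gene within 100 kb. By that count AGAP1 had 21 regions, SPIDR 19, COBL 15, and TRAK1 and UBASH3B 14 each. Just outside lay CRADD, LHFPL2, SASH1 and ZNRF3 with 13 each and CAMTA1 with 12. H3K27ac in these libraries therefore chose the genes, and its values at them are given as a description with no test.

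The cells were HCT116, an established line from a human colorectal carcinoma. Controls carried the empty pSin vector and FOXD2 cells a pSin vector with the full FOXD2 coding sequence; both were delivered by lentivirus and kept under puromycin, so both groups are selected stable populations. Tagged FOXD2 came from a separate plasmid, pcDNA3.1, with FLAG and 6xHis tags, and was precipitated through either tag. H3K27ac, H3K4me1 and MLL4 had 2 libraries per group, H3K4me3 had 1 per group, and each tag had 2. No label says that replicates came from separate cultures, so the spread between them may be technical. Of 10 colon epithelial marker genes, 6 carried an H3K4me3 peak in both H3K4me3 lists (EPCAM, CDH1, KRT8, KRT18, KRT19 and CDX2), and CDX1, VIL1, CDH17 and LGALS4 did not. So did 13281 of 19974 protein-coding genes, 2 of 5 blood markers (PTPRC, CD3E and CD14 had none), 2 of 5 fibroblast, 3 of 5 endothelial and 3 of 5 neural markers. The count of colon markers therefore does not set these cells apart.

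The genes differ in function. SPIDR, a scaffold for homologous recombination, lies on chromosome 8 (47260878 to 47736306, 475.4 kb). AGAP1, an Arf GTPase-activating protein of endosomal traffic, lies on chromosome 2 (235494043 to 236131793, 637.8 kb). COBL, an actin nucleator, lies on chromosome 7 (51016212 to 51316809, 300.6 kb). TRAK1, an adaptor that couples mitochondria to motor proteins, lies on chromosome 3 (42013093 to 42225890, 212.8 kb). UBASH3B, a tyrosine phosphatase that binds CBL ubiquitin ligases, lies on chromosome 11 (122655722 to 122814473, 158.8 kb). All positions are hg38 RefSeq gene spans, and the window of a gene is its span extended by 20 kb at each end. CEBPD, a C/EBP transcription factor at the high end of SPIDR, was the sole other protein-coding gene in the 5 windows.

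FOXD2 is a forkhead transcription factor. H3K4me1 marks enhancers whether or not they are active, and H3K27ac marks the active ones and active promoters. MLL4, also named KMT2D, is a methyltransferase that deposits H3K4me1 at enhancers, while H3K4me3 marks promoters. Wide introns of long genes commonly hold many enhancers, which may act on the host gene or on a neighbour.

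RefSeq promoter entries (GRCh38.p14) were matched for 2 of the 5 genes, 1 for UBASH3B and 3 for TRAK1. A pair is shown because each lay under H3K27ac in both FOXD2 lists and 1 control list, while H3K4me3 lay on UBASH3B alone. Each runs 5′ to 3′ over the 250 bases before a transcript start, and capitals mark CG dinucleotides.
UBASH3B (chr11:122655472-122655721, plus strand): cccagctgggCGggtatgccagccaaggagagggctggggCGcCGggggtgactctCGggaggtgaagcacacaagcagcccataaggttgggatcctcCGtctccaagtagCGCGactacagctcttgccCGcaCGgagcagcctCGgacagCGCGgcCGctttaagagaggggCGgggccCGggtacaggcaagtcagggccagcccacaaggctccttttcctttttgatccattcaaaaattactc
TRAK1, internal start (chr3:42148985-42149234, plus strand): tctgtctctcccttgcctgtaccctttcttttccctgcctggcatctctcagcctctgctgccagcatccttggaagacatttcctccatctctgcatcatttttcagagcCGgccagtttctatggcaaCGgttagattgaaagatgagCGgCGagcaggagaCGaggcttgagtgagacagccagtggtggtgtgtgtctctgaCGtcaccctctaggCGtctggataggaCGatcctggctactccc
The UBASH3B stretch held 15 CG dinucleotides and the TRAK1 stretch 8, against a median of 11 over 35116 promoter entries. Both lay under H3K4me1 in all 4 lists. MLL4 lay on the UBASH3B entry in both control lists and in neither FOXD2 list, and no tag peak lay on either. The control list without H3K27ac on the UBASH3B entry, replicate 1, had an H3K27ac peak from 0.155 kb inside the gene, just past the entry. Its lack there is thus no sign of an unmarked promoter. The forkhead core GTAAACA and its inner part TAAACA, searched on both strands over 300 bases, were absent from all 4 entries; 3.42% and 12.3% of all entries hold them. Absence says only that these letters are not in these windows.

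H3K27ac covered more of every window in both FOXD2 lists than in any control list. In SPIDR its peaks covered 21.4 and 17.4 kb in the control lists and 57.2 and 61.9 kb in the FOXD2 lists. Means were 19.4 ± 2.9 kb and 59.6 ± 3.3 kb (SD, n = 2), a ratio of 3.07. The groups stood well apart here, and the FOXD2 lists were close to each other.

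UBASH3B had the highest ratio. Control lists covered 14.2 and 11.1 kb and FOXD2 lists 37.9 and 50.1 kb, with means of 12.6 ± 2.2 and 44.0 ± 8.6 kb (SD, n = 2), a ratio of 3.48. COBL had 21.9 and 13.8 kb in control and 46.0 and 56.7 kb in FOXD2 lists, a ratio of 2.87. In both genes the lowest FOXD2 list exceeded the highest control list by more than the spread within either group.

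TRAK1 started from the most densely covered control window. Its H3K27ac peaks covered 33.6 and 27.5 kb in control and 61.6 and 68.9 kb in FOXD2 lists, a ratio of 2.14. As shares of the window these were 13.3% and 10.9% in control, against 24.4% and 27.3% in FOXD2 lists. Per length it was the most covered of the 5 genes in every H3K27ac list.

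AGAP1 was the least even. Its control lists covered 45.7 and 28.1 kb and its FOXD2 lists 59.5 and 119.0 kb (36.9 ± 12.4 and 89.3 ± 42.1 kb, SD, n = 2), a ratio of 2.42. The mean difference of 52.4 kb was 22.6 kb without FOXD2 replicate 2 and 82.2 kb without FOXD2 replicate 1, so a single library sets its size. By number of peaks the groups overlapped, with 65 and 33 in control and 47 and 121 in FOXD2 lists. The other 4 genes were separate by that measure too.

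The lists differed in length, which moves any covered length. H3K27ac lists held 129995 and 85832 peaks in control and 85122 and 141008 in FOXD2 cells, covering 131.6, 89.3, 111.3 and 170.9 Mb. Scaled to 100 Mb of list, all 5 genes were higher in both FOXD2 lists, for example 51.4 and 36.2 kb against 16.3 and 19.5 kb in SPIDR and 55.4 and 40.3 kb against 25.6 and 30.8 kb in TRAK1. The mean fold enrichment of the peaks, the authors' own value for each peak, was 4.76 and 6.53 in control and 4.64 and 5.39 in FOXD2 lists at SPIDR. Folds of separate lists are on separate scales, so no order is read between them here or below. Median peak width was greater in both FOXD2 lists in 4 of 5 genes, SPIDR excepted. The whole lists differed in the same way, with median widths of 653 and 655 bp in control and 779 and 721 bp in FOXD2 lists. Nothing is therefore read from that count.

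Over all 17643 protein-coding genes with an H3K27ac peak in their window, 28.3% were higher in both FOXD2 lists than in any control list, and 3.99% were lower than in both control lists. Among those spanning at least 100 kb the shares were 42.1% and 5.55%. Nothing is read from the 5 of 5 for this mark, since it chose the genes.

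**Figure D1:**
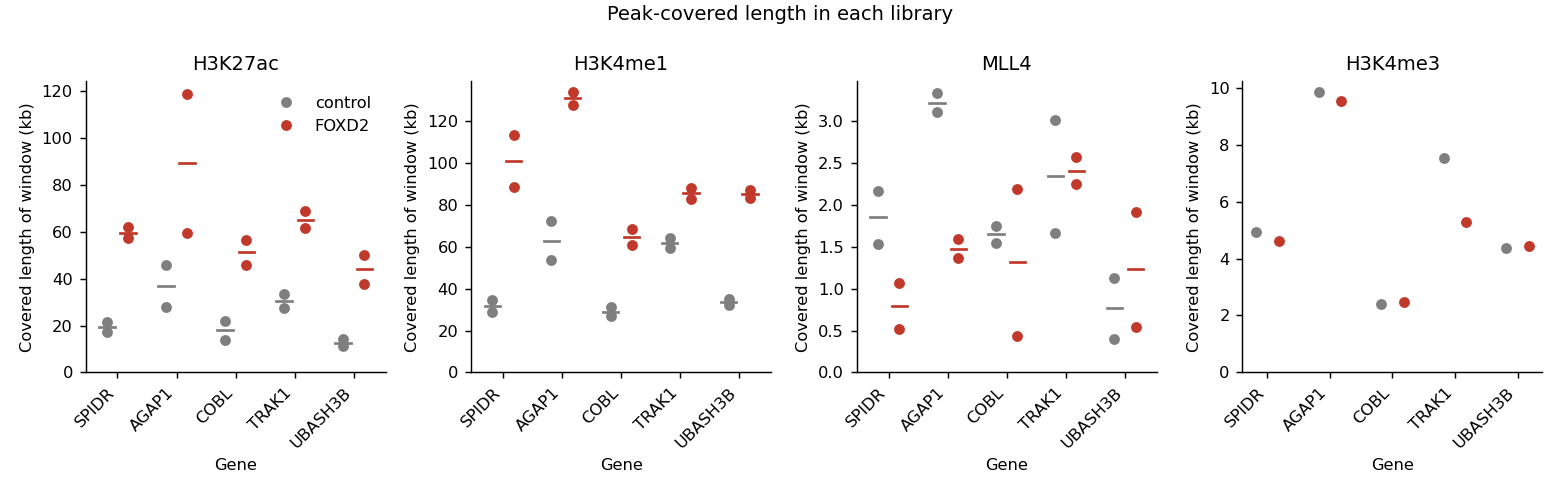
Length of each gene window (kb, vertical axis) covered by peaks, 1 panel per mark, with 1 point per library (grey control, red FOXD2) and bars for the mean of 2 libraries; vertical scales differ between panels. The red H3K27ac and H3K4me1 points lie above the grey ones at all 5 genes, with AGAP1 H3K27ac spread from 59.5 to 119.0 kb, while MLL4 and H3K4me3 show no such order.

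H3K4me1 was measured in other libraries and played no part in the choice. It too covered more of all 5 windows in both FOXD2 lists than in any control list. Over 17987 protein-coding genes 42.7% did so, and over those spanning at least 100 kb 65.3%, so more H3K4me1 was the common state of long genes in these lists. The shares with less were 11.2% of all genes and 10.1% of long ones. A count of 5 of 5 has to be read against that share.

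In SPIDR H3K4me1 peaks covered 34.6 and 28.9 kb in control and 88.6 and 113.3 kb in FOXD2 lists (31.8 ± 4.0 and 100.9 ± 17.5 kb, SD, n = 2), a ratio of 3.18. The exact permutation test gave p = 0.33 (two-sided, n = 2 per group), the smallest p that 2 against 2 allows, for this and each of the other 4 genes. SPIDR had the widest relative gap of the 5.

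UBASH3B had 35.1 and 32.1 kb in control and 83.5 and 87.3 kb in FOXD2 lists (33.6 ± 2.1 and 85.4 ± 2.7 kb, SD, n = 2), a ratio of 2.54. In FOXD2 lists 42.0% and 43.9% of its window lay under H3K4me1, against 17.7% and 16.2% in control. No other of the 5 genes was covered as densely in a FOXD2 H3K4me1 list.

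COBL had 31.0 and 26.8 kb in control against 60.7 and 68.5 kb in FOXD2 lists, a ratio of 2.24. AGAP1 had 72.4 and 53.6 kb against 128.1 and 133.9 kb, a ratio of 2.08. The FOXD2 lists of AGAP1 lay close together here, unlike in H3K27ac.

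TRAK1 differed least. H3K4me1 covered 64.2 and 59.3 kb of its window in control and 82.7 and 88.4 kb in FOXD2 lists, a ratio of 1.38, and 29 and 31 against 33 and 35 by number of peaks. Scaled to 100 Mb of list, the values were 43.9 and 48.9 kb in control and 50.5 and 49.8 kb in FOXD2 lists, still separate but by less than the spread in control. The other 4 genes kept ratios of 1.64 or more on that scale, computed from group means.

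The log2 ratio of mean covered length, with 1 kb added to each mean, places the 5 among all genes. For H3K27ac the median of the 5 was 1.47 (range 1.07 to 1.72), against 0.27 over all genes and 0.39 over genes spanning at least 100 kb, which the choice of genes fixes. For H3K4me1 the median was 1.13 (range 0.46 to 1.64), against 0.16 and 0.45. Among long genes SPIDR stood at the 97.0th percentile for H3K4me1, UBASH3B at the 92.0th, COBL at the 86.5th, AGAP1 at the 83.8th and TRAK1 at the 51.1st. TRAK1 was thus a typical long gene in H3K4me1, though at the 90.3rd percentile in H3K27ac.

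**Figure D2:**
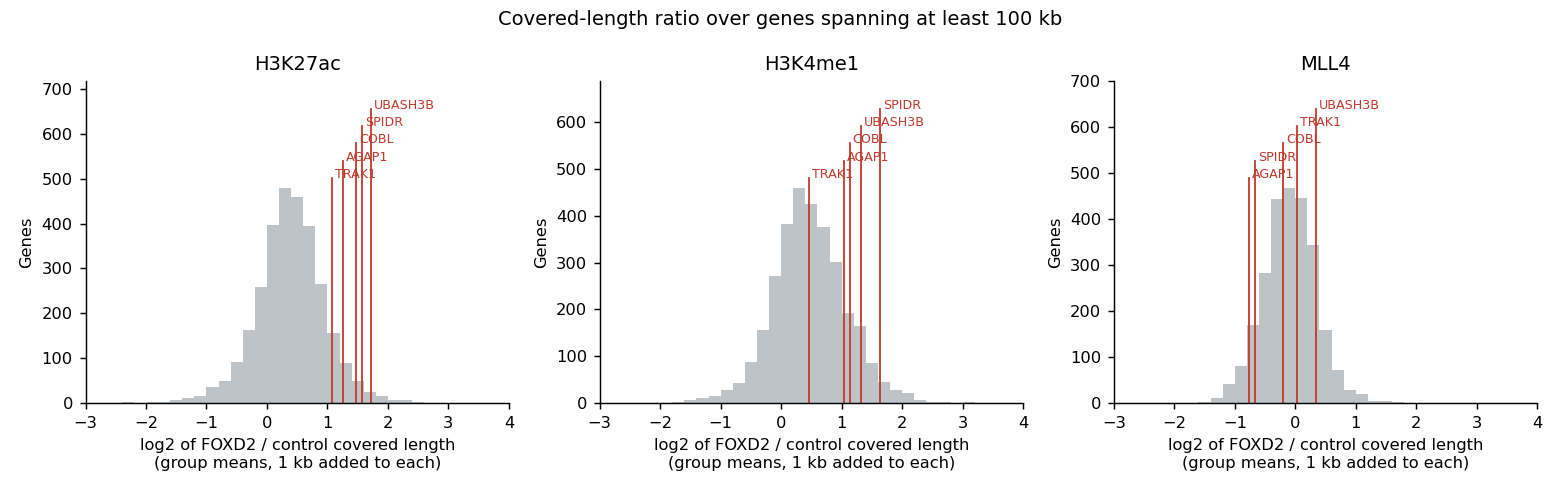
Histograms of the log2 ratio of FOXD2 to control covered length (horizontal axis) over genes spanning at least 100 kb (vertical axis, number of genes), for H3K27ac, H3K4me1 and MLL4, with red lines at the 5 genes. The 5 lines lie between 1.07 and 1.72 in H3K27ac, the mark that chose them, and between 0.46 and 1.64 in H3K4me1, while in MLL4 they straddle 0 from -0.77 to 0.34.

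The greater length lay in FOXD2-only regions, in wider shared ones and in regions of mixed lists. The proportions differed by gene. Regions were the merged peaks of the 4 lists of a mark; FOXD2-only regions were held by both FOXD2 and neither control list, and shared regions by all 4. In H3K27ac, SPIDR had 20.7 kb of its 40.1 kb difference in 19 FOXD2-only regions and 2.43 kb in 6 shared ones. UBASH3B had 10.9 kb of 31.4 kb in 14 FOXD2-only regions and 12.6 kb in 9 shared ones. At SPIDR the shared regions covered 15.6 and 16.2 kb in control against 20.1 and 16.6 kb in FOXD2 lists, and at UBASH3B 8.25 and 9.35 kb against 19.4 and 23.5 kb.

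TRAK1 divided its 34.7 kb almost evenly, 11.2 kb in 14 FOXD2-only regions, 11.7 kb in 14 shared ones and 11.8 kb in regions of mixed lists. COBL had 12.7 kb of 33.5 kb in 13 FOXD2-only and 5.30 kb in 7 shared regions. AGAP1 had 15.4 kb of 52.4 kb in 20 FOXD2-only and 19.0 kb in 10 shared regions, and it alone had control-only H3K27ac regions, 3 in number. Regions of mixed lists, those in none of these classes, carried 17.0 kb at SPIDR, 19.5 kb at AGAP1, 15.4 kb at COBL and 7.86 kb at UBASH3B. They were the largest part at AGAP1 and COBL, and by a narrow margin at TRAK1. At AGAP1 they covered 26.3 and 6.63 kb in control and 10.1 and 61.8 kb in FOXD2 lists, so the replicates did not agree there. Without FOXD2 replicate 1, so that only replicate 2 had to hold a region, the FOXD2-only count was 48 at SPIDR, 70 at AGAP1, 26 at COBL, 27 at TRAK1 and 23 at UBASH3B. Without FOXD2 replicate 2 it was 35, 24, 19, 20 and 24 in the same order.

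With a 1 bp overlap enough to hold a region, H3K4me1 leaned to wider shared regions. These carried 40.4% of the difference at SPIDR, 49.3% at AGAP1, 58.6% at COBL, 56.3% at TRAK1 and 45.5% at UBASH3B, and in each gene exceeded the part from FOXD2-only regions. FOXD2-only H3K4me1 regions numbered 19 at SPIDR, 14 at AGAP1, 11 at COBL, 10 at UBASH3B and 4 at TRAK1. Without FOXD2 replicate 1 they were 40, 39, 23, 20 and 10 in the same order, and without FOXD2 replicate 2 they were 27, 28, 16, 17 and 5. TRAK1 had 7 without control replicate 2. In a further setting a list held a region only where it covered 50% of it. FOXD2-only H3K4me1 regions then numbered 30 at SPIDR, 25 at AGAP1, 14 at COBL, 12 at UBASH3B and 10 at TRAK1. The split into shared and FOXD2-only regions thus depends on that rule. Control-only H3K4me1 regions numbered 1 at AGAP1 and 1 at TRAK1 and were absent from the other 3 windows.

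**Figure D3:**
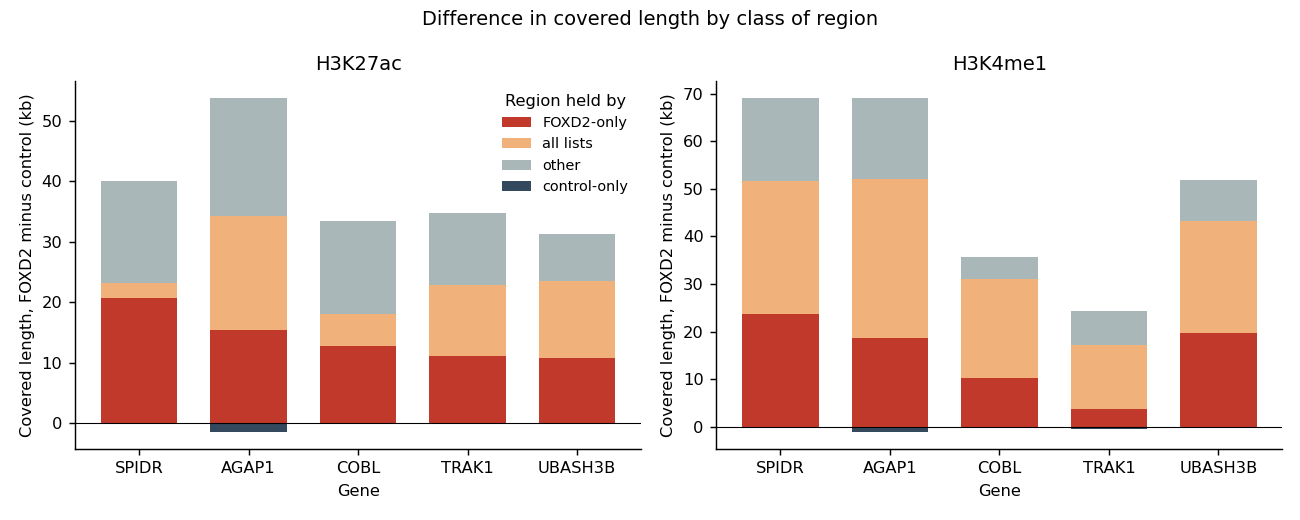
Difference in covered length between the mean FOXD2 and mean control list (kb, vertical axis) at each gene, stacked by the class of region it lies in: FOXD2-only, all 4 lists, control-only, or any other mix of lists. For H3K27ac the FOXD2-only part is 20.7 kb of 40.1 kb at SPIDR, and for H3K4me1 the regions of all lists carry more than the FOXD2-only ones at every gene.

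The longest peaks in any of the 5 windows lay at the low end of UBASH3B, next to its promoter. In FOXD2 replicate 1 one H3K4me1 peak ran 25.8 kb, from 1.25 to 27 kb inside the gene, and it was the 32nd longest of 114893 peaks in that list. FOXD2 replicate 2 had a 13.6 kb peak from 1.30 to 14.9 kb. In the control lists the longest H3K4me1 peaks of the window were 4.75 and 5.09 kb. H3K27ac also covered more of that stretch: in the 20 kb from the gene's low end it covered 3.57 and 2.70 kb in control and 11.8 and 16.0 kb in FOXD2 lists.

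In TRAK1 the longest H3K4me1 peaks of the FOXD2 lists were 10.4 and 10.4 kb, both from 162 to 172 kb into the gene. The longest control peaks were 5.24 and 5.06 kb and lay elsewhere, at 64 kb. H3K27ac differed most in the stretch from 160 to 180 kb, with 4.20 and 2.88 kb in control and 11.6 and 9.89 kb in FOXD2 lists.

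Cut into 20 kb steps, the 5 windows made 101 bins, of which 94 held H3K27ac and 89 H3K4me1. H3K27ac was higher in both FOXD2 lists in 54 and lower in both in 1, where 22.5% and 6.48% of 58010 such bins of the genome with a peak were. The windows were chosen for this mark, so nothing is read from its count. H3K4me1 was higher in 76 and lower in 2, against 41.7% and 15.9% of 64923 bins. Neighbouring bins share a gene and libraries, and the windows lie at long genes, where more H3K4me1 was common. The H3K4me1 count is therefore a description. Both marks were higher together in 49 of 86 bins that held both, against 18% of 48415. This joint call includes H3K27ac, the mark that chose the windows, so nothing is read from it either. The lower bins of both marks were in TRAK1, so within the other 4 genes no stretch of this size was lower in both FOXD2 lists.

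The difference was broad in UBASH3B, where both marks were higher in 9 of 10 bins, and patchy in AGAP1, where they were in 13 of 34. SPIDR had 12 of 26, COBL 9 of 18 and TRAK1 6 of 13. The SPIDR bin with the greatest difference in both marks ran from 100 to 120 kb, with no H3K27ac peak in either control list and 5.35 and 8.91 kb in FOXD2 lists. H3K4me1 there was already present in control, at 4.61 and 3.25 kb, against 11.3 and 15.8 kb. In COBL the stretch from 200 to 220 kb led in both marks, with H3K27ac at 2.41 and 1.10 kb in control and 7.26 and 9.82 kb in FOXD2 lists.

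**Figure D4:**
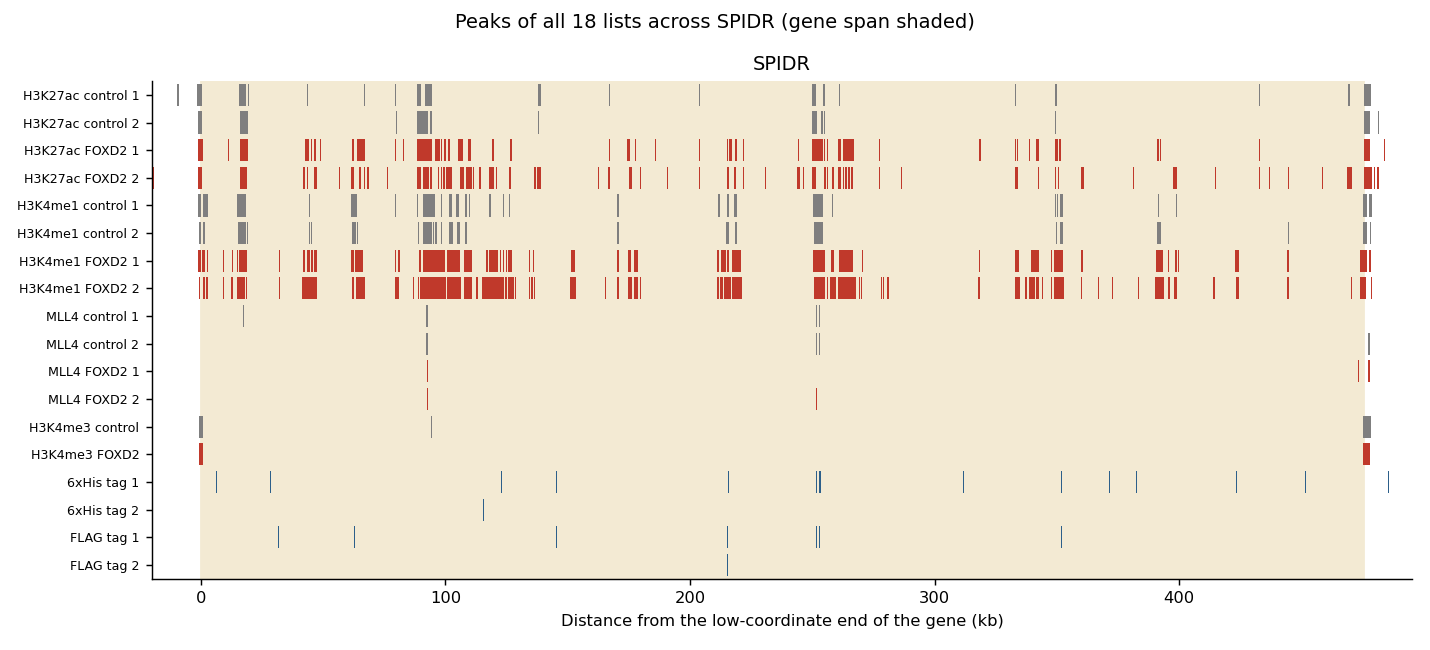
Peaks of all 18 lists across the SPIDR window by distance from the gene's low-coordinate end (kb), with the gene span shaded and each peak drawn at least 0.4 kb wide; grey is control, red FOXD2 and blue the tags. H3K27ac and H3K4me1 are denser between 40 and 130 kb and around 260 kb in the FOXD2 rows, while the H3K4me3 rows hold peaks near the gene's ends in both groups and 1 small control peak between.

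**Figure D5:**
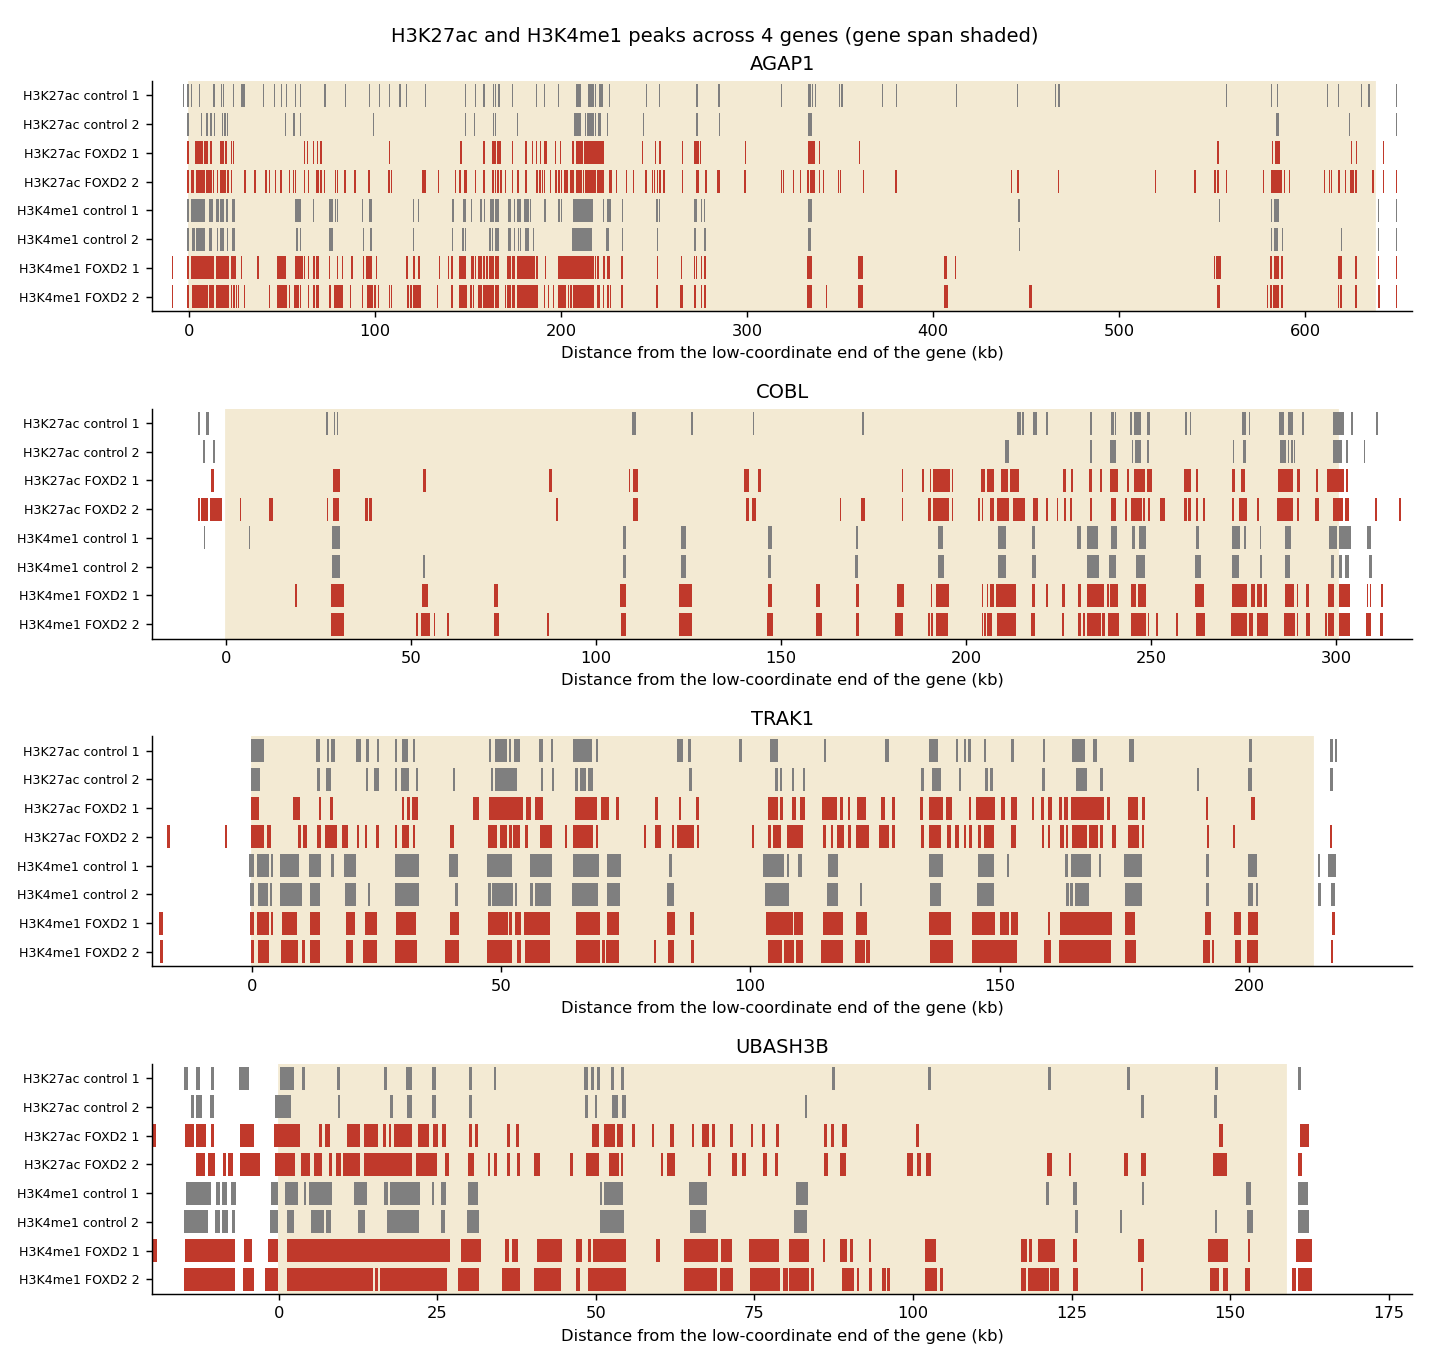
H3K27ac and H3K4me1 peaks of the 8 control (grey) and FOXD2 (red) lists across AGAP1, COBL, TRAK1 and UBASH3B by distance from the low-coordinate end of each gene (kb), drawn as for SPIDR. The long H3K4me1 peaks of 25.8 and 13.6 kb at the low end of UBASH3B stand out, and COBL differs mainly in its high-coordinate part.

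In all, 80 FOXD2-only H3K27ac regions lay in the windows, 79 of them inside the gene spans. Their distance from the gene's low end had a median of 174 kb in SPIDR (46.3 to 341 kb), 208 kb in AGAP1 (22.5 to 642 kb), 206 kb in COBL (140 to 294 kb), 125 kb in TRAK1 (8.35 to 191 kb) and 63.9 kb in UBASH3B (5.49 to 101 kb). COBL has its H3K4me3 promoter peak at the high end, so in 4 genes the promoter was at the low end and in COBL at the other. No FOXD2-only region overlapped an H3K4me3 peak, against 5.30% of the 9721 such regions elsewhere. Their median width was 962.5 bp, against 886 bp elsewhere.

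H3K4me1 at these 80 regions took several states. It was in both FOXD2 lists and neither control list at 26 (32.5%), in all 4 lists at 24 (30.0%), and in none at 21 (26.25%). Elsewhere the same states held 16.5%, 35.2% and 30.2% of FOXD2-only H3K27ac regions. COBL had 6 of 13 and UBASH3B 6 of 14 in the state with H3K4me1 from FOXD2 lists alone, AGAP1 6 of 20, SPIDR 5 of 19 and TRAK1 3 of 14. Neighbouring regions share libraries and genes, so these shares are a description.

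A pair of neighbouring SPIDR regions shows the joint state. On chromosome 8, 47524321 to 47527988 (3668 bp) carried H3K27ac at folds of 6.61 and 9.18 in FOXD2 cells. It lay inside a FOXD2-only H3K4me1 region of 6752 bp, and 47523316 to 47524082 beside it carried 5.04 and 5.95. Another region, at 47307130 to 47308332 carried 7.11 and 7.39.

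In COBL the tallest region (chromosome 7, 51207283 to 51211758, 4476 bp) carried folds of 7.55 and 8.68. H3K4me1 was already in both control lists there, and MLL4 was in 1 FOXD2 list. That was the sole MLL4 overlap among the 80 (1.25%, against 7.29% of such regions elsewhere). In UBASH3B the tallest was chromosome 11, 122665917 to 122668590 (2674 bp), with 6.51 and 8.93, inside the long H3K4me1 stretch.

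TRAK1 had its tallest at chromosome 3, 42176078 to 42176780, with folds of 5.49 and 7.25, and 42130583 to 42131954, with 5.40 and 7.48. At AGAP1 the tallest, chromosome 2, 235564468 to 235565377, carried 4.57 and 6.12 and had no H3K4me1 in any list. H3K4me1 was thus not always present at a gene's tallest FOXD2-only H3K27ac region.

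H3K4me3 marked a promoter of every gene in both groups. With 1 library per group there is no replicate check. H3K4me3 covered 4.94 kb of SPIDR in the control list and 4.60 kb in the FOXD2 list, 9.87 and 9.56 kb at AGAP1, 2.42 and 2.46 kb at COBL, 7.53 and 5.29 kb at TRAK1, and 4.36 and 4.43 kb at UBASH3B. The ratios, 0.70 to 1.02, did not reach those of either enhancer mark in any of the 5 genes.

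The promoter peak of SPIDR (47260196 to 47261874) carried a fold of 140 in control and 134 in FOXD2, and that at its high end over CEBPD carried 123 and 140. COBL (51315250 to 51317706) carried 147 and 130, AGAP1 (235493150 to 235496504) 107 and 124, TRAK1 (42013033 to 42015369) 112 and 91.2, and UBASH3B (122655057 to 122657636) 152 and 95.4. The tallest H3K4me3 peaks inside the genes lay at AGAP1 (235669256 to 235671477) and TRAK1 (42159217 to 42161494), in both lists.

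In MLL4 the 5 genes did not show the order seen in H3K27ac and H3K4me1. In none of the 5 genes was its covered length higher in both FOXD2 lists, against 2.21% of 14238 genes and 3.75% of long ones. In 2 it was lower in both FOXD2 lists, against 17.3% of all and 21.8% of long genes. With 5 genes these counts cannot be told from those shares, so nothing is read from them. SPIDR had 1.54 and 2.17 kb in control and 1.06 and 0.52 kb in FOXD2 lists. AGAP1 had 3.11 and 3.33 kb in control and 1.59 and 1.37 kb in FOXD2 lists. In both genes the exact permutation test gave p = 0.33 (two-sided, n = 2 per group), its lower limit.

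COBL (1.55 and 1.74 kb against 2.19 and 0.43 kb), TRAK1 (1.67 and 3.01 kb against 2.57 and 2.25 kb) and UBASH3B (0.40 and 1.13 kb against 1.92 and 0.54 kb) overlapped between groups. The FOXD2 replicate 2 list was short, with 4676 MLL4 peaks against 13571 to 22493 in the other 3. Without it 2 of the 5 genes had more MLL4 in FOXD2, as did 7404 of the 14238 genes. Scaled to list length, SPIDR and AGAP1 no longer separated, and 1 gene was higher, as were 810 of the 14238. Nothing is read from these counts. How far list length sets these MLL4 values was not tested.

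The 39 merged MLL4 regions of the 5 windows held no FOXD2-only region, a class that made up 1.12% of 35854 MLL4 regions in the genome. Control-only regions numbered 4, a class of 7.14% in the genome, and lay at SPIDR (47513636 to 47514089, folds 4.44 and 7.22), AGAP1 (236078039 to 236079007, 10.9 and 11.5), TRAK1 (42179223 to 42179787, 8.67 and 10.3) and at the UBASH3B promoter (122655483 to 122655900, 4.70 and 5.61). At the AGAP1, TRAK1 and UBASH3B sites H3K27ac and H3K4me1 were in all 4 of their lists. Regions of all 4 MLL4 lists numbered 2 in AGAP1, 2 in TRAK1 and 1 in SPIDR, and each carried H3K27ac and H3K4me1 in all their lists.

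Tagged FOXD2 had 80 regions of any tag list in the windows, of 91522 in the genome. Of the 80, 3 were held by all 4 tag lists, 1 in COBL and 2 in TRAK1, out of 5399 such regions in the genome. Without 6xHis replicate 2, the shortest tag list, the count was 6. The COBL site (51162605 to 51163505, folds 3.92 to 6.40) lay under H3K4me1 in all 4 lists and under no H3K27ac. The TRAK1 sites (42070426 to 42071353 and 42079281 to 42080813) lay under both marks in all lists, and the latter under MLL4 in all 4.

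Of the 80 FOXD2-only H3K27ac regions, 5 overlapped a tag peak of any list (6.25%, against 14.2% of such regions elsewhere), and none a region of all 4 tag lists (1.41% elsewhere). The SPIDR region at 47476105 to 47476720 was held by 3 tag lists with folds of 4.34, 4.23 and 4.33, and lay under H3K27ac in both FOXD2 lists and neither control list. The tags came from other cells than the marks, and no tag library without the tag was analysed here.

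In the 250 kb beyond each end of the 5 windows, H3K27ac was higher in both FOXD2 lists in 7 of 10 flanks and H3K4me1 in 8 of 10, and the rest overlapped. Of all 250 kb bins of the genome with a peak, 31.5% and 56.1% met the same call. The rule that chose the genes could also count H3K27ac regions beyond the windows, so it reached into these flanks. By that rule COBL had 15 regions and AGAP1 21, against 13 and 20 inside their windows. Nothing is therefore read from the H3K27ac count of flanks. Below SPIDR H3K27ac covered 1.57 ± 1.22 kb without and 8.29 ± 0.81 kb with added FOXD2, and below AGAP1 10.4 ± 0.6 and 29.7 ± 5.3 kb (SD, n = 2). Beside TRAK1 the H3K27ac groups overlapped on both sides, at 4.83 ± 2.12 against 5.45 ± 0.36 kb and 8.24 ± 1.23 against 9.08 ± 4.46 kb (SD, n = 2).

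The pattern across libraries was compared with other long genes by Pearson r over the 14 vector libraries, using the log2 percent of the window covered, centred within each mark. Genes of 1 library share its list length and group, so r is a description. Among 3345 genes SPIDR was closest to ASAP2 (r = 0.98), DNAH6 and ALMS1, AGAP1 to SLC35D4, GNAQ and VGLL4, and COBL to MAPKAP1 (r = 0.99), OSBPL10 and ABTB2. TRAK1 was closest to IGFL2 (r = 0.94), PLCE1 and SLC23A2, and UBASH3B to MAMDC2 (r = 0.97), TTC39C and HECW1. Between the 5 genes r ran from 0.67 for AGAP1 and UBASH3B to 0.91 for SPIDR and AGAP1. The 14 libraries include those of H3K27ac, which chose the genes, so nothing is read from r between them.

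Genes of the same pathways were counted from 5 lists. Among 18 other genes of homologous recombination, SPIDR's pathway, H3K27ac was higher in both FOXD2 lists in 7 and lower in 0, with a median log2 ratio of 0.43, against 28.3% and 0.27 over all genes. In H3K4me1 9 were higher and 3 lower, against 42.7% and 11.2% over all genes, shares that serve for the other lists too. FIGNL1, an ATPase that binds SPIDR, had 1.91 and 1.5 kb of H3K27ac in control against 5.15 and 4.65 kb in FOXD2 lists. XRCC2, which also acts in this repair, had 1.61 and 1.82 kb against 3.18 and 6.13 kb.

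Of 22 other Arf GTPase-activating proteins, 5 were higher and 0 lower in H3K27ac (median 0.27), and 8 higher and 2 lower in H3K4me1. ASAP2, the closest in pattern to SPIDR, had 31.4 and 22.5 kb of H3K27ac in control and 66.5 and 90.7 kb in FOXD2 lists. Its H3K4me1 was 58.5 and 46.6 kb in control and 137.3 and 140.8 kb in FOXD2 lists, so both marks stood apart there. ASAP1 had 28.8 and 23.7 kb of H3K27ac against 44.9 and 44.9 kb, and AGFG1 3.11 and 1.78 kb against 6.19 and 6.28 kb. In H3K4me1 the groups overlapped at AGFG1, with 18.9 and 13.3 kb in control and 16.4 and 18.7 kb in FOXD2 lists. They also overlapped at FIGNL1 and XRCC2 above and at MYO19 and KIF5A below. At ASAP1, DIAPH1, FMNL2, LMOD3, TRAK2, EGFR and CBL H3K4me1 was higher in both FOXD2 lists.

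Actin nucleators and their activators, the family of COBL, had 9 of 24 higher and 1 lower in H3K27ac (median 0.30), and 16 of 25 higher and 2 lower in H3K4me1. DIAPH1, a formin, had 27.8 and 26.2 kb of H3K27ac in control against 39.4 and 41.1 kb in FOXD2 lists. FMNL2, another formin, had 4.97 and 4.11 kb against 17.3 and 14.9 kb. LMOD3, a leiomodin that nucleates actin, had 0.96 and 1.33 kb against 7.49 and 7.93 kb. Among 16 motor adaptors and partners of TRAK1, 5 were higher and 0 lower in H3K27ac (median 0.44), and its paralogue TRAK2 had 5.41 and 3.74 kb against 8.28 and 7.92 kb. MYO19, a myosin of mitochondria, had 14 and 11 kb against 15.3 and 19.3 kb, and KIF5A, a kinesin heavy chain, 4.31 and 2.97 kb against 4.64 and 6.85 kb. In H3K4me1 7 of the 16 were higher and 0 lower.

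CBL ligases and receptors they down-regulate, the partners of UBASH3B, had 5 of 20 higher and 1 lower in H3K27ac (median 0.32), and 8 higher and 4 lower in H3K4me1. EGFR, the epidermal growth factor receptor, had 32.6 and 35.4 kb in control and 58.6 and 53.2 kb in FOXD2 lists. CBL itself had 18.9 and 14.3 kb against 21.2 and 30.0 kb. MET, the hepatocyte growth factor receptor, was lower, with 15.5 and 25.4 kb of H3K27ac in control and 11.6 and 3.07 kb in FOXD2 lists. Its H3K4me1 was 92.6 and 79.0 kb in control and 33.2 and 29.0 kb in FOXD2 lists, the reverse of UBASH3B in both marks.

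In MLL4 the lists had 0 of 15 genes higher and 4 lower for homologous recombination, 0 of 21 and 6 for Arf GTPase-activating proteins, 1 of 23 and 4 for actin nucleators, 1 of 14 and 1 for motor adaptors, and 1 of 18 and 2 for CBL partners. Over all genes with an MLL4 peak in their window, 2.21% were higher and 17.3% lower. The FOXD2 replicate 2 MLL4 list was short, and how far that sets these counts was not tested. No list was tested, and the H3K27ac share of genes that were higher lay below that of all genes for the Arf and CBL lists and above it for the other 3.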

How the data were processed

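HCT116 chromatin was precipitated after MNase digestion for histone marks, and after formaldehyde crosslinking and sonication for MLL4 and the tags, per the labels' protocols. Per the submitters' processing notes, the tools included MACS2 2.2.7.1 and Bowtie2 2.3.4.1, with cutadapt 3.4, bedtools and Picard, on build hg38. The authors deposited 1 peak list per library, with a fold enrichment (a ratio) per peak, and −log10 of a p-value and of a q-value beside it, per the files' columns. Neither read depth nor the background library is given in the sources used here. The 7 inputs are not used here. Chromosomes 1 to 22 and X were analysed. Covered length, peak number and merged regions (gap 0 bp, 1 bp overlap) were computed per window in Python 3.11.15 with scipy 1.17.1, pandas 2.3.3 and numpy 2.4.6, and were checked on simulated lists. A gene was called where its groups of 2 did not overlap. Fold described peaks, and FOXD2-only H3K27ac regions were ordered by the lower of their 2 folds. Genes named are the 5, the next 5 by count, the 3 closest in pattern to each, and up to 3 per pathway list by size of H3K27ac difference; 1 gene that this rule named is not reported here. The genes and lists were chosen with earlier results of these data known. Alternatives covered threshold, list length, window, measure, each replicate left out and a replicate block.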

Additional observations from a re-analysis of the deposited data

How the results depend on the processing

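The count of 5 of 5 genes higher in FOXD2 held for H3K4me1 under all 11 alternatives and for H3K27ac under all 12 except the number of peaks, which gave 4. H3K27ac in these libraries chose the genes, so nothing is read from its count holding. Of all genes, 4987 were higher in H3K27ac, 2081 by number of peaks, 2885 scaled to list length, and 5870 to 12995 with 1 library left out. For H3K4me1 7676 were higher, 4709 scaled to list length, and 7816 to 13242 with 1 left out. With a replicate block (FOXD2 above control within each number) 5462 genes were higher in H3K27ac, 8645 in H3K4me1 and 525 in MLL4, and 5, 5 and 0 of the 5 genes. Deviations of same-numbered lists correlated at -0.62, 0.12 and 0.20 for H3K27ac, H3K4me1 and MLL4. No label says that the numbers pair the libraries. Crossing the numbers, chosen after seeing the data, gave 5 genes of the 5 and 10095 of all for H3K27ac. For MLL4 0 of the 5 were higher, 2 at equal list length, 1 scaled, and 0 to 2 with 1 library left out; of all genes 315 were, 518 at equal length, 173 by number, 810 scaled, and 499 to 7404 with 1 left out, the highest without FOXD2 replicate 2. With 1 library left out the MLL4 difference ran from -0.60 to 0.74 kb at TRAK1, from -1.21 to 0.54 kb at COBL and from -0.22 to 1.15 kb at UBASH3B. It changed sign at TRAK1 (-0.016 kb at a −log10 q of 5 or more, -1.0 peaks by number, -0.60 kb without control replicate 1, -0.089 kb without FOXD2 replicate 1), COBL (0.030 kb with no extension, 0.54 kb without FOXD2 replicate 2) and UBASH3B (-0.22 kb without FOXD2 replicate 1). Tag regions of all 4 lists numbered 3, 1 at the stricter q, 26 in at least 2 lists, and 3 to 6 with 1 list left out. Over 8 alternatives, FOXD2-only H3K27ac regions ranged from 13 to 70 at AGAP1, 13 to 48 at SPIDR, 7 to 26 at COBL, 10 to 27 at TRAK1 and 6 to 24 at UBASH3B, with 6 at UBASH3B and 7 at COBL at the stricter q; FOXD2-only H3K4me1 regions ranged from 11 to 39, 13 to 40, 6 to 23, 4 to 10 and 8 to 20 in the same order. An overlap of 50% of the shorter interval is met by construction in merged regions, so 50% of the region was used instead. The cause of these changes was not tested. Without read depth, a peak missing from a list is not shown to be absent.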
